A study of Homo sapiens with 4 samples.

Results

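The target genes of YAP and TAZ described here are 7 of the 23228 genes in the count files: CTGF, CYR61, NT5E, F3, AMOTL1, AMOTL2 and ANKRD1. They were chosen by symbol, as genes widely used to read YAP and TAZ activity, with earlier results of these data known. The files carry the older names CTGF and CYR61 for CCN2 and CCN1. Reads per gene were counted by RNA-seq in A673 cells, a line from Ewing sarcoma, a tumour driven by a fusion of EWSR1 with an ETS factor. All cells had grown in DMEM with fetal bovine serum and had been transfected using Lipofectamine RNAiMAX, either with a scrambled control siRNA or with siRNA against FAT4, and were harvested 24 h or 48 h later. Each of these 4 conditions was 1 library (control 24 h, control 48 h, FAT4 siRNA 24 h and FAT4 siRNA 48 h), so the conditions were not replicated. A single cell line was used, the labels do not say whether the FAT4 siRNA was a single duplex or a pool.

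YAP and TAZ are transcriptional coactivators that bind DNA through TEAD factors. When the Hippo kinases STK3, STK4, LATS1 and LATS2 are active, YAP and TAZ are phosphorylated and kept out of the nucleus, and when the kinases are inactive they enter it and switch on genes of matrix, adhesion and growth. FAT4 is a large cadherin that has been tied to this pathway in some tissues. CTGF and CYR61 are the classical readouts, and the angiomotin-like proteins AMOTL1 and AMOTL2 bind YAP and restrain it, so that AMOTL2 in particular is known as a feedback target.

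TEAD factors recognise the letters GGAATG, or CATTCC on the other strand. RefSeq promoters (build GRCh38.p14, 250 bases before to 50 bases after the annotated start) were at hand for 6 of the 7 genes, with 2 start sites for AMOTL2, and none was matched for CYR61. The promoter of CTGF held GGAATG 3 times, at positions -169, -104 and -95 from the start. That of ANKRD1 held it 2 times, at -220 and -128, and the downstream promoter of AMOTL2 held 1 match on the other strand, at -69. No match lay in the windows of AMOTL1, NT5E, F3 or the other AMOTL2 start. Of 35116 promoters of the same length, 14.0% held at least 1 match on either strand. The sequences with a match are shown because CTGF had the highest siRNA ratios of the 6 tested genes. ANKRD1, with 2 matches, had counts near 0 and was not tested. The sequence of NT5E is shown as one without a match that was higher as well. Capitals mark GGAATG or CATTCC, 5′ to 3′ on the gene's strand.
CTGF, chr6:131951323-131951622, minus strand: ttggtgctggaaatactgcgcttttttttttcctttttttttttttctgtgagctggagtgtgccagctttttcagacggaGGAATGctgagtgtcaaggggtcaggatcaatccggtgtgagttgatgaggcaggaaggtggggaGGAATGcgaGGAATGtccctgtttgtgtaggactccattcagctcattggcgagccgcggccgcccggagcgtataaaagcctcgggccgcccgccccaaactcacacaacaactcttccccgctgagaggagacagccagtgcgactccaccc
AMOTL2, chr3:134374398-134374697, minus strand: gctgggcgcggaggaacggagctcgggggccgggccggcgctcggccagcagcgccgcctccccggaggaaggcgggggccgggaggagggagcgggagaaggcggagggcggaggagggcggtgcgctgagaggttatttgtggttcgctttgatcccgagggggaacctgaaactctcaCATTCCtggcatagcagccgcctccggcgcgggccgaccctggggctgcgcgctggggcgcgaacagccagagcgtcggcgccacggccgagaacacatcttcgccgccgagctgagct
ANKRD1, chr10:90921038-90921337, minus strand: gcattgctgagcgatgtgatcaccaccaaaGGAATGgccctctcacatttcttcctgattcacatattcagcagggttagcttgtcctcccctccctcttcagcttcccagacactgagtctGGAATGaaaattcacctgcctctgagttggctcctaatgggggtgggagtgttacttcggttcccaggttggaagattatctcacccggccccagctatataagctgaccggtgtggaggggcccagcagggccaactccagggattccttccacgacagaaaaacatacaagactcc
NT5E, chr6:85449833-85450132, plus strand: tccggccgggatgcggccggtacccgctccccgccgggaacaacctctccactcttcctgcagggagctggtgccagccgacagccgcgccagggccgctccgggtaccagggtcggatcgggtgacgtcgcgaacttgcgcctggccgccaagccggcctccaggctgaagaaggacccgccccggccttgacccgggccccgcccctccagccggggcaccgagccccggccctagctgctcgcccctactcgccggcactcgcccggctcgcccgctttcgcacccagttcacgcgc
The AP-1 letters TGANTCA, which are the same on both strands and often lie near TEAD sites in enhancers, occurred 2 times in the F3 promoter and 1 time in that of ANKRD1, against 7.71% of all promoters. The CArG box, to which SRF binds, occurred in none of the 7 windows and in 1.29% of all promoters. Such matches describe letters in these windows and are not measured binding sites.

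Gene counts summed to between 15196813 and 22625833 per library, and both FAT4 siRNA libraries were smaller than both controls. Levels are given as CPM, a count divided by the library's total, itself scaled by its TMM factor (0.9727 to 1.026), and multiplied by 1000000. Without that factor 3 counts correspond to 0.133 to 0.197 CPM. Of the 23228 genes, 13712 had enough counts to be tested, and 10596 had a mean of at least 5 CPM. FAT4 itself stood at 165 and 149 CPM in control at 24 h and 48 h, and at 71.8 and 60.2 CPM with its siRNA. It fell by 1.25 on the log2 scale (SE 0.0978, edgeR adjusted p = 8.65e-34). With 1 library per condition, edgeR's SE and p-values, here and below, do not measure the spread between cultures. Of 12 markers of Ewing sarcoma, 11 reached 1 CPM, and their sum lay between 4962 and 5685 CPM in the 4 libraries. Most of that sum came from CCND1 (2690 to 3382 CPM) and JAK1 (932 to 1051 CPM). CD99 was listed at 0 in every library. Summed markers of endothelium (1.08 to 2.06 CPM) and of leukocytes (0.348 to 0.541 CPM) were near 0. The 6 epithelial markers summed to 158 to 208 CPM, nearly all from the keratins KRT8 and KRT18, with EPCAM at most at 0.248 CPM. COL1A2 and THY1, which are fibroblast markers, were expressed, and the fibroblast list of 8 genes summed to between 687 and 1000.1 CPM. Of the 11 tested Ewing markers, 2 rose and 6 fell with the FAT4 siRNA in edgeR's test, where 11.9% of all genes rose and 14.1% fell. The 2 that rose were LIPI, by 0.31 on the log2 scale, and CCND1, by 0.24. Not called were STEAP1 (0.11), BCL11B (-0.06) and JAK1 (-0.05). The 6 that fell were led by the homeobox factor NKX2-2, by 0.85 on the log2 scale, and LINGO1, by 0.68. THY1 (by 0.61), PDGFRB (by 0.47) and KRT8 (by 0.52) fell as well. The other tested markers of fibroblasts and epithelium were not called and went both ways. Their log2 fold changes were 0.59 (DCN), 0.17 (COL1A2), -0.31 (COL1A1), -0.25 (LUM) and 0.02 (KRT18). The part of the marker changes in those of the YAP and TAZ targets was not tested.

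With the FAT4 siRNA, 5 of the 6 tested genes rose over both times and 1, AMOTL1, fell. As the genes were chosen with earlier results of these data known, these counts are no independent support for a direction. CTGF moved the furthest, followed by CYR61 and NT5E, while AMOTL2 and F3 rose by less than 1 on the log2 scale. ANKRD1 was not tested, with at most 2 counts in any library. Among all 13712 genes tested, the same edgeR test called 11.9% higher and 14.1% lower, 25.9% in all. DESeq2 called 4 of the 6, all but F3 and AMOTL1, and 11.2% of the genes for which it gave an adjusted p. With a coefficient of variation of 0.2 assumed between cultures, only CTGF and CYR61 of the 6 were called, and 0.977% of all genes. As these are bulk libraries, less RNA per cell and fewer cells of a kind cannot be told apart.

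CTGF and CYR61 encode secreted matricellular proteins of the CCN family, which bind integrins and growth factors in the matrix. CTGF had 326 and 146 counts in the controls of 24 h and 48 h, and 612 and 614 counts in the FAT4 siRNA libraries. After TMM scaling these were 14.6, 7.25, 41.4 and 39.2 CPM. Both FAT4 siRNA libraries lay above both controls, and the control at 48 h was the lowest of the 4. The share of all genes separated by siRNA in this way, here and for the genes below, was not counted. At 24 h the ratio between the siRNAs was 2.84 (95% counting interval 2.48 to 3.25), and at 48 h it was 5.41 (4.51 to 6.53). Among 10596 genes of at least 5 CPM, this was the highest ratio at 24 h (rank 1) and rank 2 at 48 h. At least 2-fold higher were 0.245% of these genes at 24 h and 0.595% at 48 h. Over both times the rise of CTGF was 1.93 on the log2 scale by edgeR's quasi-likelihood test (SE 0.14, adjusted p = 3.5e-39). With siRNA as the only term of that test, the adjusted p was 0.174.

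CYR61 stood at 30.4 and 21.3 CPM in the controls of 24 h and 48 h, against 58.5 and 68.3 CPM after FAT4 siRNA. The 2 siRNAs did not overlap, and here the FAT4 siRNA library at 48 h was the highest. Ratios were 1.93 (1.74 to 2.13) at 24 h, rank 39, and 3.2 (2.86 to 3.59) at 48 h, rank 7. CYR61 rose by 1.31 (SE 0.118, edgeR adjusted p = 2.16e-25). Of the other CCN genes, NOV had 21, 1, 10 and 4 counts in the order of libraries used above. It did not pass the test for the siRNA (log2 fold change -0.01, edgeR adjusted p = 0.994). WISP1, WISP2 and WISP3 were listed at 0 throughout, so CTGF and CYR61 supplied nearly all CCN reads.

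Receptors of CCN proteins went both ways. Of 9 tested, 2 rose and 3 fell with the FAT4 siRNA, where 11.9% of all genes tested rose and 14.1% fell. The median log2 fold change of the 9 was -0.17, against -0.01 over all genes. The integrin chain ITGB1 rose by 0.66 (edgeR adjusted p = 1.45e-11) and ITGAV by 0.27 (adjusted p = 0.0177). The chain ITGB5 fell by 0.63 (adjusted p = 1.84e-09) and the endocytic receptor LRP1 by 0.41 (adjusted p = 0.00174).

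NT5E and F3 encode proteins of the cell surface. NT5E (CD73) is the ectonucleotidase that makes adenosine from AMP. Its level went from 81.4 CPM at 24 h to 46.7 at 48 h in control, and from 144 to 107 CPM after FAT4 siRNA. Both FAT4 siRNA libraries again lay above both controls. The ratio was 1.76 (1.66 to 1.88) at 24 h and 2.3 (2.12 to 2.49) at 48 h, and the fitted rise of NT5E was 1.0 (log2, SE 0.0986, edgeR adjusted p = 1.74e-21). Among 9 other tested genes of extracellular adenosine, 1 was called, where 25.9% of all genes tested were called. It was the phosphodiesterase ENPP1, which fell by 0.29 (edgeR adjusted p = 0.0332). The median of the 9 was -0.18. The adenosine receptors ADORA2A and ADORA2B had log2 fold changes of -0.18 and -0.26 and were not called.

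F3, or tissue factor, starts coagulation by binding factor VII. It had 162 to 187 counts per library. Its level was 7.92 and 8.05 CPM in the controls at 24 h and 48 h, and 12.7 and 11.3 CPM with the FAT4 siRNA. The siRNAs did not overlap, at ratios of 1.6 (1.29 to 1.97) and 1.4 (1.12 to 1.74). F3 rose by 0.58 (SE 0.176, edgeR adjusted p = 0.00665) but was not called by DESeq2 (adjusted p = 0.177), with adjusted p from 0.00479 to 0.562 over all settings tried. Of 6 other tested genes of the tissue factor pathway, 2 rose and 1 fell, where 11.9% of all genes tested rose and 14.1% fell. TFPI, which inhibits tissue factor, rose by 0.49, the phospholipid-binding annexin ANXA5 by 0.54, and the protein C receptor PROCR fell by 0.79 from 61, 92, 19 and 47 counts.

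AMOTL1 and AMOTL2 are scaffolds of cell junctions and of the actin cytoskeleton, and they differed in direction. AMOTL2 went from 120.5 CPM at 24 h to 77.8 at 48 h in control, and from 176 to 115 CPM after FAT4 siRNA. Here the groups overlapped, since control 24 h lay above FAT4 siRNA 48 h, and only libraries of equal time were ordered by siRNA. The ratios at 24 h and 48 h were nearly equal, 1.46 (1.38 to 1.54) and 1.48 (1.39 to 1.59), and AMOTL2 rose by 0.56 (SE 0.0952, edgeR adjusted p = 2.13e-07).

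AMOTL1, at 236 and 229 CPM in the controls and 202 and 191 CPM after FAT4 siRNA, was lower in both FAT4 siRNA libraries than in both controls. Its ratios of 0.857 (0.819 to 0.896) and 0.835 (0.797 to 0.875) lay within the middle of all genes, which ran from -0.56 to 0.48 on the log2 scale at 24 h and from -0.68 to 0.55 at 48 h between the percentiles 5 and 95. AMOTL1 fell by 0.24 (SE 0.0907, edgeR adjusted p = 0.0338). That call was lost with DESeq2 (adjusted p = 0.183), with no filter (0.0555) and after correction for GC content and length (0.212). It was also lost in edgeR with siRNA as the only term (adjusted p = 0.495) and with a coefficient of variation of 0.2 assumed (0.952). AMOT, the founding member, was at 11.1, 10.9, 12.7 and 9.59 CPM and was not called (log2 fold change 0.01). Of 8 tested partners and relatives of AMOTL1 and AMOTL2, 1 rose and 3 fell, where 11.9% of all genes tested rose and 14.1% fell. The 3 that fell were the tight junction scaffolds MAGI1 (by 0.49), INADL (0.44) and MPP5 (0.29).

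ANKRD1, a nuclear and sarcomeric ankyrin repeat protein that is strongly induced by YAP in many epithelial and muscle cells, had 1 count in the control of 24 h, 2 counts with the FAT4 siRNA at that time, and 0 in both libraries of 48 h. All values were at or below the floor of 3 counts, so no ratio is given. Expression was not detectable at this depth in either condition. Its relative ANKRD2 was listed at 0, and ANKRD23 stood between 3.52 and 6.09 CPM without a call (edgeR adjusted p = 0.0614).

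**Figure D1:**
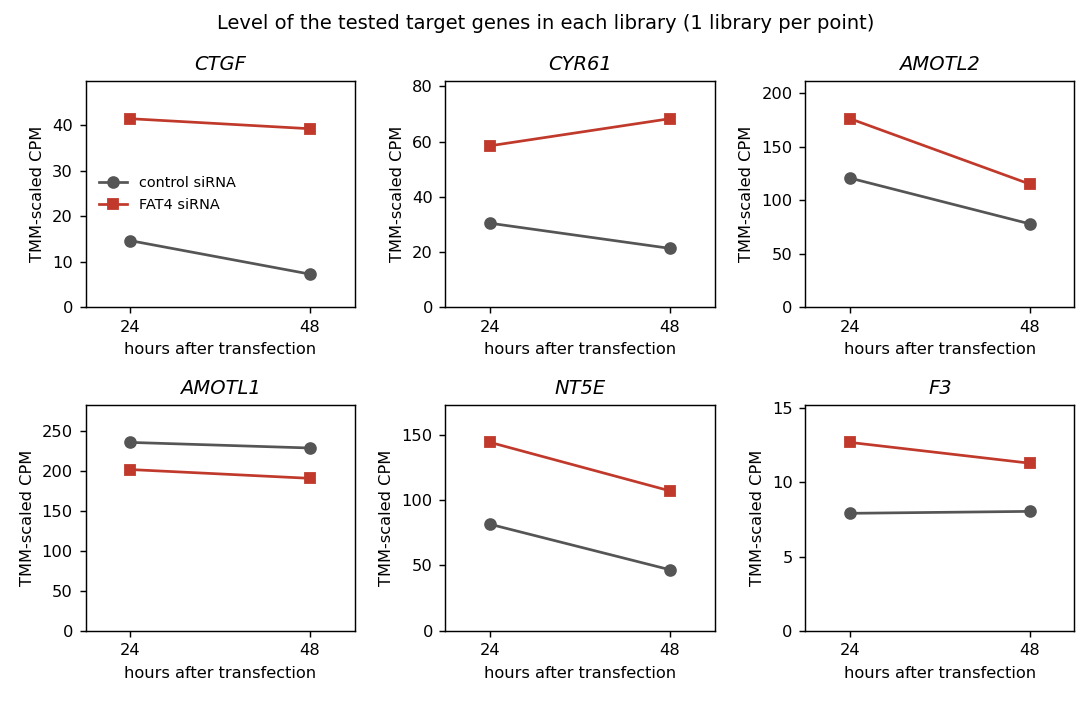
TMM-scaled CPM (y axis, from 0, each panel with its own scale) of the 6 tested genes at 24 h and 48 h (x axis), with 1 library per point, grey circles for control siRNA and red squares for FAT4 siRNA, joined by lines within an siRNA. CTGF, CYR61, NT5E and F3 lie higher with the FAT4 siRNA at both times without overlap, AMOTL2 is higher at each time but overlaps across times, and AMOTL1 is lower. The share of all genes without overlap was not counted.

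Levels between genes were compared per length, as CPM per kilobase of the longest coding transcript. The median gene of at least 5 CPM stood at 13.3 to 13.6 CPM per kb. In control 48 h the order was AMOTL1 (25.5), AMOTL2 (17.2), NT5E (11.9), CYR61 (9.31), F3 (3.52) and CTGF (3.1). In FAT4 siRNA 48 h it was CYR61 (29.8), NT5E (27.4), AMOTL2 (25.5), AMOTL1 (21.3), CTGF (16.8) and F3 (4.92). CYR61 thus stood at place 4 in both controls and at place 1 in FAT4 siRNA 48 h. Across the 4 libraries AMOTL1 kept within 21.3 to 26.3 CPM per kb, inside the range of AMOTL2 (17.2 to 38.8). AMOTL1, AMOTL2, NT5E and CYR61 overlapped in their ranges, and so did CTGF (3.1 to 17.7) and F3 (3.46 to 5.53). Neighbours in these orders overlapped in their ranges over libraries, which include siRNA and time, with exceptions at 2 places. CYR61, which was at least at 9.31, stood next to F3, at most at 5.53, in control 48 h. AMOTL1, at least at 21.3, stood next to CTGF, at most at 17.7, in both FAT4 siRNA libraries.

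The siRNA ratio was larger at 48 h than at 24 h by more than counting error for CTGF, CYR61 and NT5E, while the counting intervals of the difference included 0 for the other tested genes. On the log2 scale the difference between the times was 0.93 for CTGF, with a counting interval of 0.61 to 1.26, and 0.73 (0.52 to 0.95) for CYR61. These lay outside the central range of -0.42 to 0.44 (percentiles 5 to 95) over 10596 genes. NT5E, at 0.38 (0.23 to 0.53), lay within it. For AMOTL2 the difference was 0.03 (-0.1 to 0.15), for AMOTL1 -0.04 (-0.13 to 0.06) and for F3 -0.19 (-0.62 to 0.24). FAT4 itself differed by -0.11 (-0.25 to 0.04). A test of these differences needs replicates, because a fit with siRNA, time and their interaction uses up all 4 libraries.

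Counting intervals of the siRNA ratio excluded 1 at both times for all 6 tested members, higher for 5 and lower for AMOTL1. Over all genes of at least 5 CPM this held for 20.5% on the higher side and 21.2% on the lower side. The interval covers counting error only, and reads without molecular identifiers are not independent molecules.

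**Figure D2:**
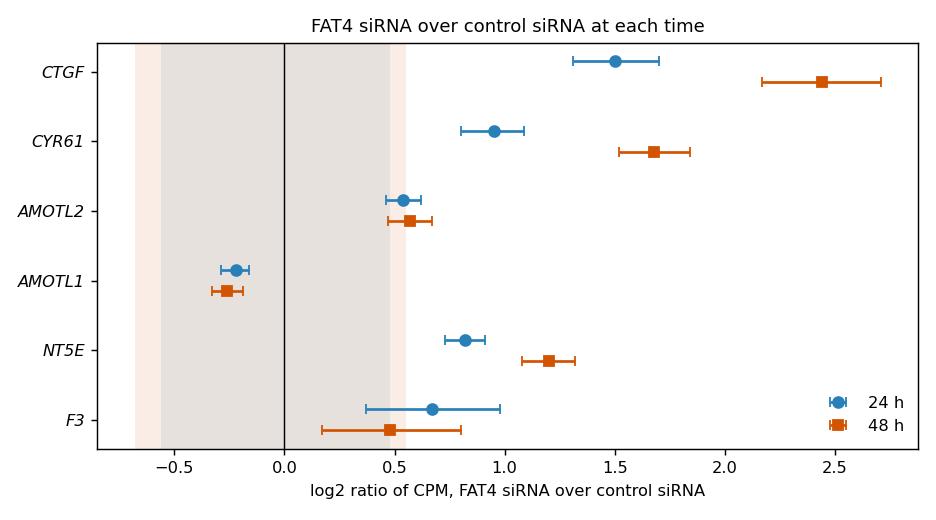
Log2 ratio of FAT4 siRNA to control siRNA (x axis) for the 6 tested genes (y axis), blue circles at 24 h and orange squares at 48 h, with 95% counting intervals as bars and the range between percentiles 5 and 95 of all genes of at least 5 CPM shaded in the same colours. CTGF runs from 1.5 at 24 h to 2.44 at 48 h and CYR61 from 0.95 to 1.68, whereas AMOTL2 and AMOTL1 hold the same place at both times.

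The comparison of 48 h with 24 h asked how the same genes moved with time in culture. Over both siRNAs, 3 of the 6 tested members were called in edgeR's test, and all 3 fell, where 12.8% of all tested genes fell, 13.8% rose and 26.6% were called in all. For all genes the share of calls that were higher was 51.9%, and it was 66.3% with scaling by library size alone and 34.7% after correction for GC content and length. CTGF, AMOTL2 and NT5E were lower at 48 h under all 9 alternatives. AMOTL2 fell by 0.62 (SE 0.0953, edgeR adjusted p = 5.19e-09), NT5E by 0.61 (SE 0.0982, adjusted p = 3.12e-08) and CTGF by 0.47 (SE 0.138, adjusted p = 0.00495). CTGF was not called by DESeq2 (adjusted p = 0.154), and its adjusted p ranged from 0.00263 to 0.903 over the settings tried. DESeq2 called 2 of the 6 members for time, AMOTL2 and NT5E, and 9.5% of genes.

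The genes differed in what happened under each siRNA. Under control siRNA, CTGF at 48 h was 0.497 times its level at 24 h, with an interval of 0.406 to 0.606, which is a log2 ratio of -1.01 and rank 34 from the bottom among 10596 genes. Only 0.33% of those genes were at least 2-fold lower. That log2 ratio of CTGF was -1.02 with DESeq2 size factors. With library size alone (-0.95) or 1 CPM added (-0.92) it was short of 2-fold. Under FAT4 siRNA the CTGF ratio was 0.948 (0.846 to 1.06), a log2 ratio of -0.08. CYR61 was lower at 48 h under control siRNA (log2 ratio -0.51) and higher under FAT4 siRNA (0.22), and both intervals excluded no change. Such an opposite pattern, lower under control and higher under FAT4 siRNA, was seen in 1.5% of genes.

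NT5E was lower at 48 h under both siRNAs, with log2 ratios of -0.8 under control and -0.42 under FAT4 siRNA. For AMOTL2 the ratios were almost the same, -0.63 and -0.61, at ranks 201 and 322 from the bottom. Both intervals lay below 1 for NT5E and AMOTL2, as they did for 22.5% of genes. AMOTL1 (-0.04 and -0.08) and F3 (0.02 and -0.17) stayed near their level at 24 h. The difference between these time ratios is the same quantity as the difference between the siRNA ratios given above, and the ratios of 48 h share the control 48 h library with the time ratio under control. CTGF, CYR61, NT5E and AMOTL2 all had their lowest level in the 1 control library of 48 h.

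**Figure D3:**
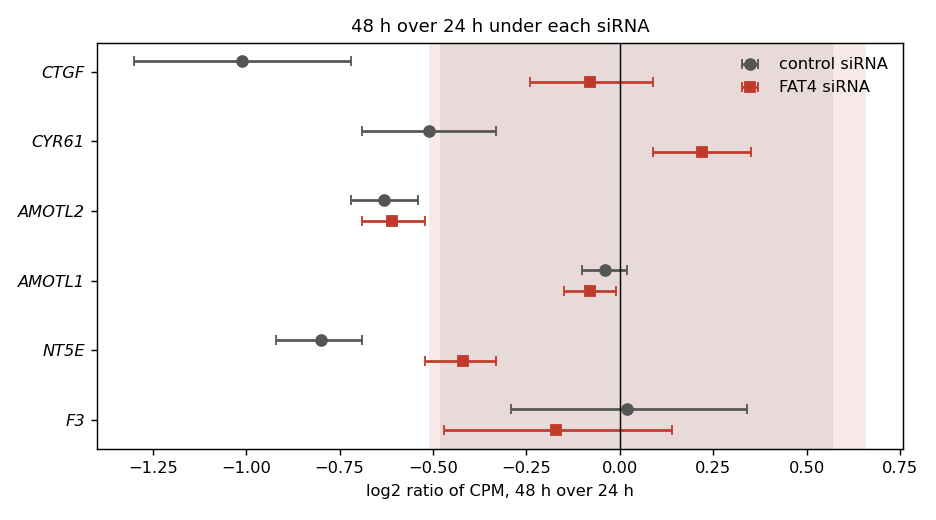
Log2 ratio of 48 h to 24 h (x axis) for the 6 tested genes (y axis), grey circles under control siRNA and red squares under FAT4 siRNA, with 95% counting intervals as bars and the range between percentiles 5 and 95 of all genes of at least 5 CPM shaded. CTGF lies at -1.01 under control siRNA and -0.08 under FAT4 siRNA, CYR61 at -0.51 and 0.22, and AMOTL2 at -0.63 and -0.61.

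The genes with the profiles most like these over the 4 libraries were found by the root mean square distance between centred log2(CPM + 1) profiles among 10596 genes. Closest to CTGF were MRGPRF (distance 0.328), TNFRSF12A (0.342) and CYR61 (0.345). The orphan receptor MRGPRF was at 16.6, 5.66, 33.2 and 22.8 CPM in control 24 h, control 48 h, FAT4 siRNA 24 h and FAT4 siRNA 48 h. TNFRSF12A, the receptor of TWEAK, was at 32, 13.6, 71.6 and 43.7 CPM in that order. Closest to CYR61 were TMEM189 (0.123), TTPAL (0.132) and the EGFR inhibitor ERRFI1 (0.167), which was at 94.1, 83.4, 163 and 222 CPM. Closest to NT5E were the secreted glycoprotein FSTL1 (0.0813), at 261, 167, 440.4 and 332 CPM, the microRNA host transcript MIR17HG (0.139) and the SMN complex member GEMIN5 (0.151). With 4 libraries such a likeness is a description.

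Further YAP and TAZ targets were taken from a conserved signature of 22 genes, which holds 6 of the 7 members, and from 22 other genes often used as targets, which include AMOTL1. Outside the members, 15 signature genes were tested, of which 3 rose and 1 fell (median log2 fold change 0.15), against 11.9% higher and 14.1% lower over all genes. IGFBP3, which binds insulin-like growth factors, rose by 1.71 (edgeR adjusted p = 0.00584) from 15, 3, 27 and 13 counts, and the matrix protein CCDC80 fell by 1.27 (adjusted p = 9.37e-07) from 135, 196, 48 and 50 counts. LATS2, a Hippo kinase and feedback target, had a log2 fold change of -0.12, and the membrane protein MYOF also of -0.12, and neither was called. FOXF2 was listed at 0.

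In the list of other targets, 16 genes outside the members were tested, of which 9 were called in edgeR's test, all higher, with a median of 0.41. Over all genes tested 11.9% rose and 14.1% fell, with a median of -0.01. With scaling by library size alone 8 of the 16 rose and 1 fell, where 1425 of 13712 genes rose and 2057 fell. TNFRSF12A rose by 1.4 (edgeR adjusted p = 6.18e-27), the EGF family ligand EREG by 1.29 (adjusted p = 3.49e-05) and TEAD1 by 0.7 (adjusted p = 2.02e-12). For TEAD1 the log2 siRNA ratio was 0.81 at 24 h and 0.58 at 48 h. The lists were compiled with earlier results of these data known, so their counts are no independent support for a direction.

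**Figure D4:**
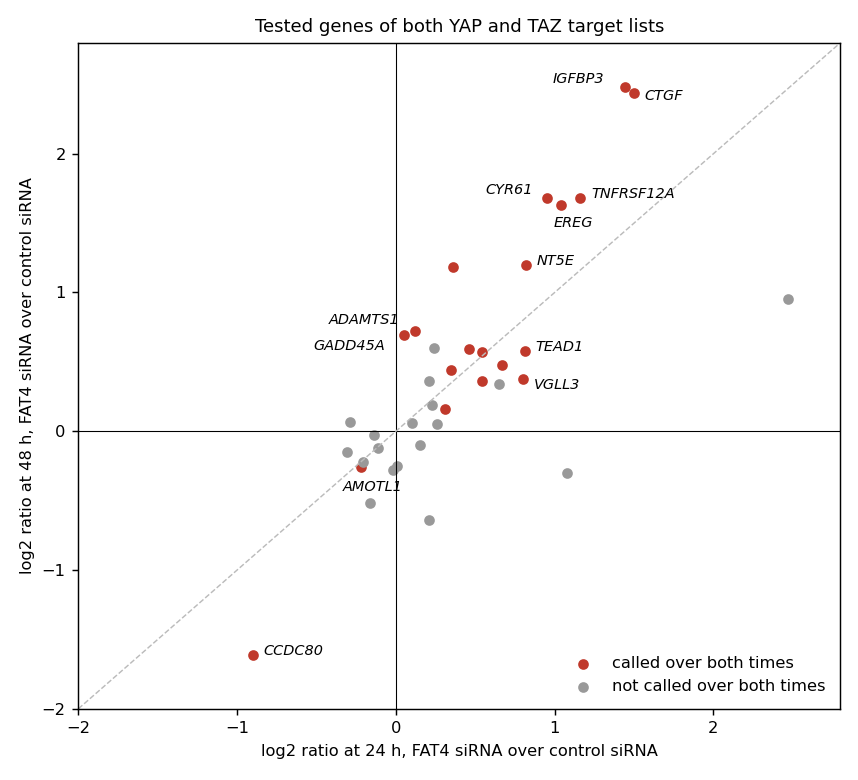
Log2 ratio of FAT4 siRNA to control siRNA at 24 h (x axis) and at 48 h (y axis) for the tested genes of both target lists, with genes called over both times in red and others in grey, and the line of equal ratios dashed. CTGF and IGFBP3 lie at the upper right, CCDC80 at the lower left, and most uncalled genes near 0. The grey point furthest to the right is THBS1, which was below 1 CPM in every library.

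The pathway upstream of these targets held calls in both directions. Of 29 Hippo components and TEADs, 27 lie outside the members, of which 2 rose and 1 fell, with a median of -0.01, where 25.9% of all genes were called. With the GC and length correction 6 of the 27 rose and 3 fell, where 1778 of 13078 genes rose and 1434 fell. TEAD1, a DNA-binding partner of YAP, was at 177 CPM in both controls and at 311 and 263 CPM with the FAT4 siRNA. FRMD6, a FERM protein upstream of the kinases, rose by 0.48 (edgeR adjusted p = 0.00019), and NF2, which activates LATS kinases at the membrane, fell by 0.46 (adjusted p = 0.00245). YAP1 had a log2 fold change of 0.16 (adjusted p = 0.175) and WWTR1, which encodes TAZ, of -0.18 (adjusted p = 0.143). Transcript levels do not show the phosphorylation or location of either protein.

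Several of the members are also known targets of other factors, so lists for these were set beside them. Of 18 targets of SRF and its MRTF coactivators, 4 were called by edgeR, all higher (median 0.01, and -0.01 with library size alone), where 11.9% of all genes rose. With the GC and length correction 6 were called, all higher (median 0.17). Called in the uncorrected fit with the largest changes were the actin-binding proteins TAGLN, which rose by 0.71, and CNN2, by 0.5. ACTB and the factor SRF were not called (log2 fold changes -0.12 and -0.01). Among 17 immediate early genes, 5 were called by edgeR, all higher (median 0.17), and with the GC and length correction 6, all higher (median 0.29). The AP-1 subunit JUN rose by 0.89 (adjusted p = 1.73e-12), EGR1 by 0.83 (adjusted p = 7.61e-12), the mRNA-decay factor ZFP36 by 0.7 and the AP-1 subunit FOSL1 by 0.53. Of 11 tested targets of TGF-beta and SMADs, 1 rose and 1 fell, where 11.9% of all genes rose and 14.1% fell. The 1 that fell was ID2, by 0.26, a call lost after correction for GC content and length. The part of these factors in the levels of CTGF, CYR61 and F3 was not tested.

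**Figure D5:**
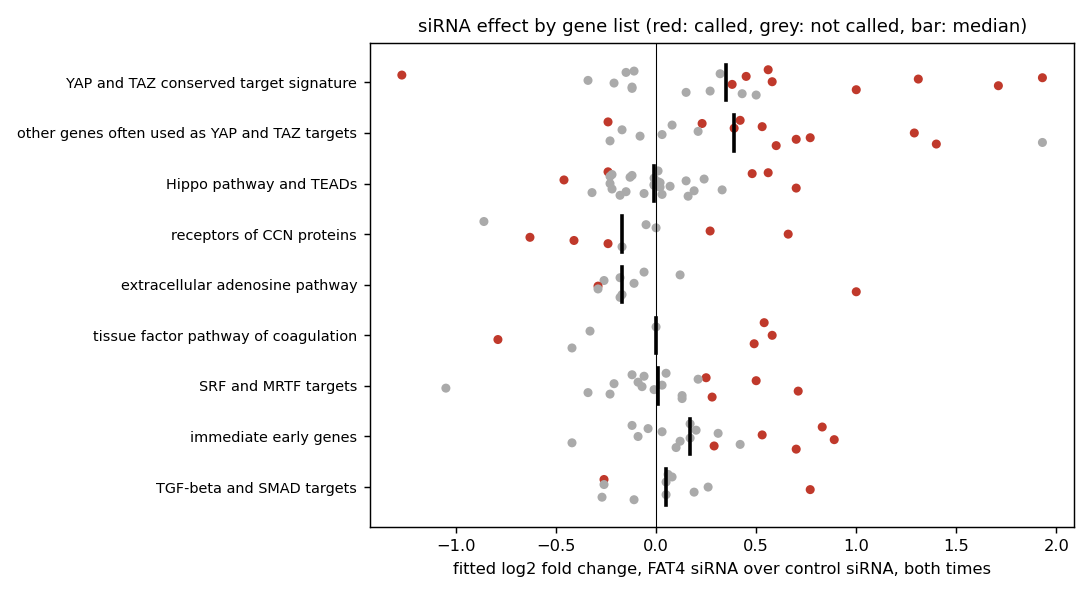
Fitted log2 fold change of FAT4 siRNA against control siRNA over both times (x axis) for every tested gene of 9 lists (y axis), red where called and grey where not, with the list median as a black bar. The target lists have medians of 0.35 and 0.39 with the members included, and the Hippo and TEAD list has a median of -0.01.

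Base composition moved with the siRNA ratio over all genes. Across 4 groups of genes of equal size, from the lowest to the highest GC content of the transcript, the median log2 ratio went from 0.2 to -0.24 at 24 h and from 0.09 to -0.1 at 48 h. The members had GC contents of 43.3% to 56.7%. Genes within 1 percentage point of CTGF (51.5%) had medians of -0.05 and 0.01, and those around CYR61 (50.3%) of -0.02 and 0.03. With the correction for GC content and length CTGF rose by 1.97 and CYR61 by 1.33, in place of 1.93 and 1.31. The genes around AMOTL2 (56.7%) had medians of -0.14 and -0.04, and with the correction AMOTL2 rose by 0.71 in place of 0.56. The changes of the other tested members became smaller with the correction. NT5E rose by 0.98 in place of 1.0 and F3 by 0.5 in place of 0.58. AMOTL1 had a log2 fold change of -0.13 in place of -0.24 and was no longer called.

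A short word in the 3' UTR also moved with the ratio. Of 16157 words of 7 bases, scored over 10116 genes with GC content and UTR length accounted for, TTGGACT marked lower genes most, with medians of -0.04 (24 h) and -0.07 (48 h) in the 12.4% of genes that held it, against -0.01 and 0.01 over all genes of at least 5 CPM. AGCCTTA marked higher genes most, with medians of 0.11 and 0.07. AMOTL1, the member that fell, was the only one of the 7 whose annotated 3' UTR held TTGGACT, with 1 copy in 5958 bases, the longest UTR of the 7. No member held AGCCTTA. Both words were chosen from the ratios described here, and their part in the level of AMOTL1 was not tested.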

How the data were processed

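Gene counts of 4 libraries of A673 cells were used, 1 for each siRNA and time. The authors deposited raw read counts for each gene. Tools listed in the submitters' processing notes are HTSeq, SAMtools, TopHat2 and CASAVA 1.8.2, with build hg19, and per the labels' protocols the libraries were stranded mRNA libraries. The annotation, counting mode and strand setting are not stated. GENCODE 29 places antisense genes over exons of CTGF and AMOTL1 and a pseudogene over AMOTL2. Their reads could not be told apart if strand was not used. Entries that name no gene (19.48% to 20.54% outside genes and 0.772% to 0.804% ambiguous, of the reads in genes, outside them or ambiguous) were left out.

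Counts were tested with edgeR 4.0.16 in R 4.3.3 (TMM factors 0.9727 to 1.026, filterByExpr at 10 counts and a total of 15, quasi-likelihood fit of the 4 libraries on siRNA plus time, two-sided, Benjamini-Hochberg adjustment over 13712 genes at 0.05). The fit has 1 residual degree of freedom, and 100% of genes had infinite prior degrees of freedom, so that the spread comes from a trend over all genes (biological coefficient of variation 0.0737 in common). Its p-values do not measure the spread between cultures. Ratios at each time or siRNA are of TMM-scaled CPM with nothing added, with exact 95% Clopper-Pearson counting intervals and no test. Differences between ratios have a normal-approximation counting interval. DESeq2 1.42.0, other scalings and filters, an assumed spread and a correction for GC content and length by splines (5 and 4 degrees of freedom, GENCODE 29 transcripts for 13078 tested genes) were run as alternatives.

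On simulated counts for the siRNA comparison over both times (13550 genes), 92 of 100 genes changed 1.5-fold and 99 of 100 changed 2-fold were recovered, with 12 false calls among 203. The simulation gave all genes 1 dispersion, the common value that the fit took from these 4 libraries. It therefore cannot show whether that value is right for the spread between cultures. The members and gene lists were chosen with earlier results of these data known. Named genes are the members, FAT4, up to 4 called genes per list with the largest change (1 of them is not reported here), and the 3 genes most like CTGF, CYR61 and NT5E. Uncalled genes, genes listed at 0 and genes named for their role (such as YAP1, WWTR1 and LATS2) were chosen after their values were seen. So were the called Ewing markers CCND1 and LIPI.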

Additional observations from a re-analysis of the deposited data

Results flagged for a closer look

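CYR61 was lower at 48 h than at 24 h under control siRNA (log2 ratio -0.51) and higher under FAT4 siRNA (log2 ratio 0.22). It was singled out because the 1 pair of libraries of each siRNA moved in opposite directions, with both counting intervals excluding no change, as in 1.5% of genes of at least 5 CPM. The difference was not tested, since 1 library per condition leaves no residual.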

How the results depend on the processing

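The direction of all 6 tested members in the siRNA comparison was the same under the 9 alternatives. CTGF and CYR61 were called under 8 of them, NT5E and AMOTL2 under 7, F3 under 6 and AMOTL1 under 4. With siRNA as the only term, edgeR called 0 of 13712 genes and 0 members at the adjusted threshold (1706 genes and 4 members at an unadjusted p under 0.05), while DESeq2 called 1234 genes. That fit counts the difference between the times as spread. With the coefficient of variation assumed to be 0.2, 134 genes and 2 members (CTGF and CYR61) were called, and NT5E had adjusted p = 0.0551. For time, edgeR called 3646 genes. DESeq2 called 1176, the assumed spread 394 and 0 members (2 at an unadjusted p under 0.05), and time as the only term 50 and 0 members (1 at an unadjusted p under 0.05), where the log2 fold change of CYR61 turned from -0.12 to 0.01 without a call. With the GC and length correction 7 in place of 3 Hippo and TEAD genes, members included, were called higher, and the cause was not tested. Ratios at each time and under each siRNA stayed within their counting intervals with library size or DESeq2 size factors and with 0.5 or 1 CPM added. Replicates could not be paired because each condition was 1 library, and the fit of siRNA plus time takes the time into account. Leaving out any library leaves that fit no residual, so the ratios of single times stand in place of such a check. Depth limits genes of few counts, among them ANKRD1, NOV and IGFBP3.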
